A study of Mus musculus with 9 samples.

Results

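The subject is a group of 7 zinc finger transcription factor genes that are known from dendritic cells (DCs) and lymphocytes: Zbtb46, Bcl6, Zbtb7b, Zbtb7a, Zbtb16, Zfp366 and Bcl11a. They were taken by name, whatever their values, from 19938 genes measured in 3 sorted populations of mouse bone marrow, and each had 1 probe set that names that gene alone. Common DC progenitors (CDPs) without reporter signal (Zbtb46- CDPs), CDPs with reporter signal (Zbtb46+ CDPs) and pre-CD8 DCs were each hybridised to 3 whole-transcript gene arrays. Every mouse carried a heterozygous Zbtb46-GFP reporter, in which green fluorescent protein follows the Zbtb46 gene, so no group had a mouse without the reporter. Cells from pelvis, tibia and femurs were separated on a FACSAria Fusion sorter. The labels give neither the sort gates nor the construction of the reporter, nor do they state if replicates came from different animals, pools or sorting sessions. Each p-value therefore measures only the spread between these arrays.

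Zbtb46, Bcl6, Zbtb7a, Zbtb7b and Zbtb16 belong to the BTB zinc finger family. In these proteins an amino-terminal BTB domain forms dimers and binds corepressor complexes, and carboxy-terminal zinc fingers bind DNA. Zfp366, also called DC-SCRIPT, has zinc fingers and a region that binds the corepressor CtBP, and it acts with nuclear receptors; Bcl11a has zinc fingers and binds the NuRD complex. Pre-CD8 DCs are marrow precursors of the CD8+ classical DC, or cDC1, which presents antigen to CD8 T cells.

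Of the 7 genes, 4 were higher in Zbtb46+ CDPs than in Zbtb46- CDPs. These were Zbtb46 itself, on which the populations were separated, and Bcl6, Zfp366 and Zbtb7b. Only Bcl6 rose again in the pre-CD8 DCs by the test used here, and Zbtb7b differed there by 0.01 on the log2 scale. Bcl11a, Zbtb16 and Zbtb7a passed the test in no pairwise comparison. None of the 7 was called lower anywhere.

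**Figure D1:**
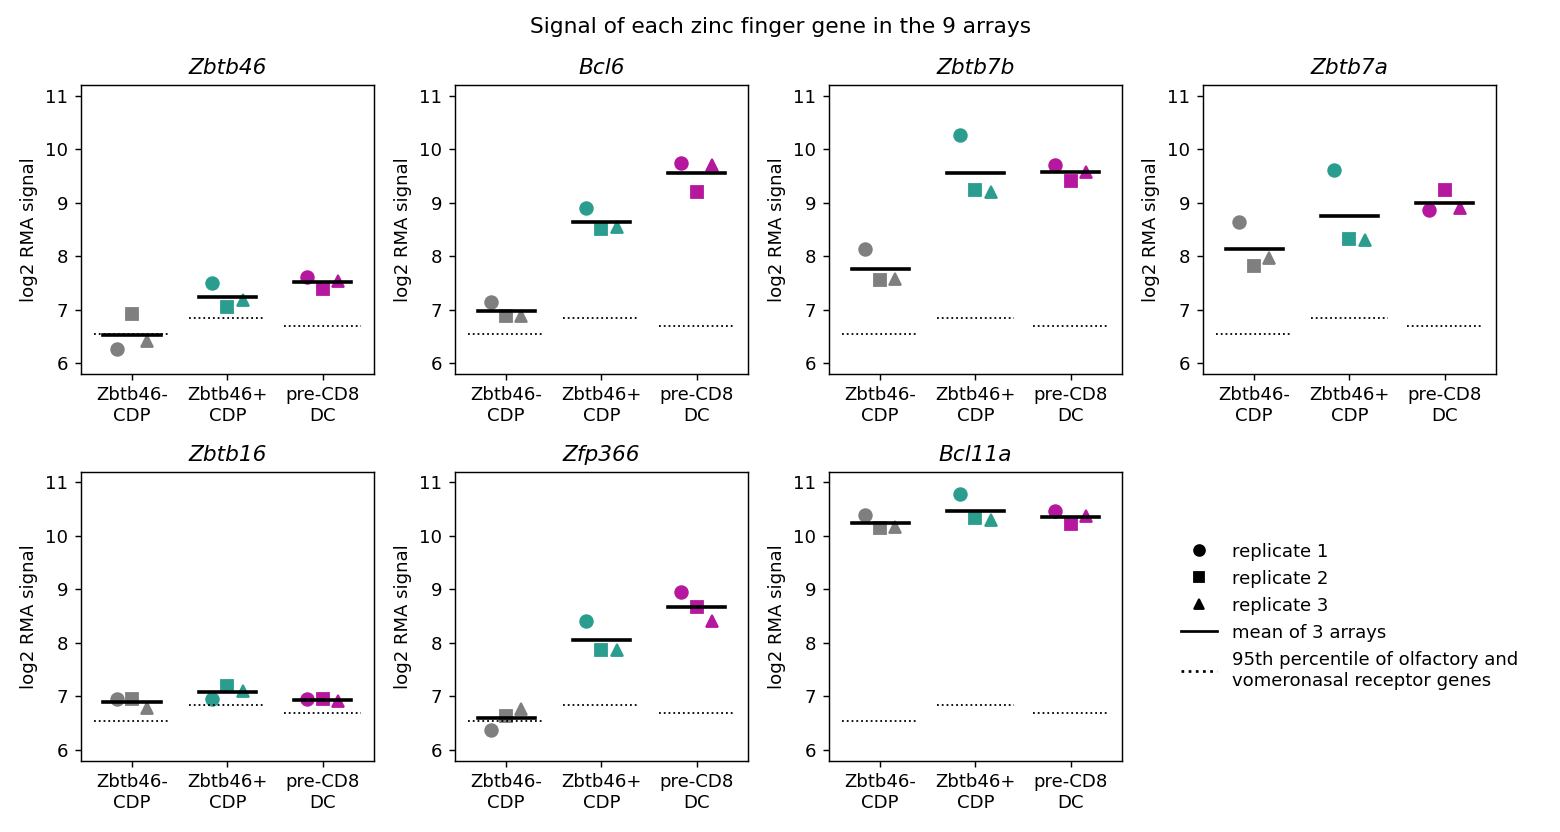
Log2 signal of the 7 zinc finger genes on each of the 9 arrays (vertical axes, log2 units) in the 3 populations, Zbtb46- CDPs at the left, Zbtb46+ CDPs in the middle and pre-CD8 DCs at the right. Points are arrays, with the replicate number as their shape, solid bars are group means and dotted bars mark the level under which 95% of silent receptor genes lie. Bcl6 steps up at both stages, Zbtb7b lies at 7.76 in Zbtb46- CDPs and near 9.56 in both other groups, and Bcl11a stays between 10.15 and 10.78 on all arrays.

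The values are log2 of the deposited array signal, and differences are differences of mean log2 signal, so a difference of 1 is a doubling. A gene was called when limma's moderated test gave it a p under 0.05 after Benjamini-Hochberg adjustment, with the whole set of 19938 genes adjusted together. Signals of different genes come from different probe sets and are not set against each other. In Zbtb46+ CDPs against Zbtb46- CDPs, 3.85% of all genes were called higher and 10.6% lower, beside 4 and 0 of the 7. In pre-CD8 DCs against Zbtb46+ CDPs the shares were 4.76% and 1.86%, beside 1 and 0 of the 7. Over the whole span, pre-CD8 DCs against Zbtb46- CDPs, they were 6.43% and 9.23%, beside 4 and 0. Both counts of 4 include Zbtb46, whose reporter set the CDP groups. The comparisons share arrays: the first 2 share the Zbtb46+ CDP arrays, and the whole span shares an end with each of them.

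Arrays were checked before the results. Replicate 1 of both CDP groups stood apart: Xist, the RNA that coats the inactive X chromosome, read 5.59 and 5.30 there, against 11.85 to 12.29 on the other 7 arrays. The Y-linked gene Eif2s3y read 6.92 and 6.51 on those 2 arrays and 3.63 to 3.78 elsewhere. Ngp, a neutrophil granule gene, was uneven within each group: it read 10.48, 5.70 and 6.84 in Zbtb46- CDPs, 12.36, 5.39 and 5.73 in Zbtb46+ CDPs and 8.30, 5.78 and 8.54 in pre-CD8 DCs. Where leaving out those 2 arrays changed a call of the 7 genes, both values are given. Defining genes of the labelled cell types were read as well. Csf1r, the M-CSF receptor of DC progenitors, averaged 11.22 in Zbtb46- CDPs, 10.31 in Zbtb46+ CDPs and 7.56 in pre-CD8 DCs. Kit and Flt3, also receptors of progenitors, did not fall in that way. In the same order of groups Kit averaged 10.47, 10.68 and 11.58, and Flt3 11.19, 10.70 and 11.29. Clec9a and Xcr1, surface receptors of cDC1 cells, averaged 11.29 and 8.26 in pre-CD8 DCs, against 9.41 and 6.41 in Zbtb46+ CDPs. In bulk samples such as these, fewer cells of a type and less RNA per cell cannot be told apart.

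Zbtb46, which marks classical DCs and their committed precursors, checks the sort of the 2 CDP groups. Its signal was 7.50, 7.05 and 7.18 on the Zbtb46+ CDP arrays, against 6.27, 6.92 and 6.41 on the Zbtb46- CDP arrays. The groups did not overlap, and the labels and the transcript run the same way. The gap was narrowest in the second replicates, at 0.13, against 1.23 in the first and 0.77 in replicate 3. The mean difference was 0.71 ± 0.17 (SE, n = 3 each; limma adjusted p = 0.0261). It is no result of its own, since the reporter of that gene set the groups. It was no longer called without replicate 1 of the Zbtb46- CDPs (0.58, adjusted p = 0.0954), nor without the 2 arrays low in Xist (0.45, adjusted p = 0.0891), nor without replicate 3 of the Zbtb46- CDPs (0.65, adjusted p = 0.0981) or of the Zbtb46+ CDPs (0.74, adjusted p = 0.0554). A fit of the CDP groups alone gave an adjusted p of 0.0799, and 0.0865 with the replicate number as a block.

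In pre-CD8 DCs Zbtb46 read 7.60, 7.39 and 7.53. These arrays overlapped those of the Zbtb46+ CDPs, and the difference of 0.27 (95% interval -0.13 to 0.66; limma adjusted p = 0.463) was not called. Against Zbtb46- CDPs the pre-CD8 DCs were 1.97-fold higher (95% interval 1.50 to 2.59; adjusted p = 0.00454). Zbtb46 in the Zbtb46- CDPs lay at 6.53 on average, close to the level of silent genes. That level was read from 1194 olfactory and vomeronasal receptor genes, of which 95% lay under 6.54 in Zbtb46- CDPs, 6.84 in Zbtb46+ CDPs and 6.69 in pre-CD8 DCs. Differences against so dim a group may understate the change in RNA.

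The RefSeq window of 250 bases before to 50 after an annotated Zbtb46 start (GRCm38.p6, chr2:181424339-181424638, minus strand) is shown because the reporter follows this gene. The letters just before this start are a run rich in c and t that ends in cag, as at the end of an intron. The window may therefore not be the promoter, and its positions count from the annotated start only. Motifs were searched on both strands and are printed in capitals. They are TTCNNNGAA, the palindrome that Bcl6 and STAT factors bind; GAGGAA, bound by PU.1; TGACCA, bound by Bcl11a; GACCC, a core bound by Zbtb7 factors; and GAAANNGAA, bound by interferon regulatory factors. Of 32851 RefSeq mouse windows, 8.3% hold the Bcl6 palindrome, 28.3% GAGGAA, 13.6% TGACCA, 43.9% GACCC and 8.56% GAAANNGAA. No printed matches overlap, and a match is a description of letters, not of binding. The Zbtb46 window holds GACCC in 2 places, from position -215, where it reads GGGTC on the strand shown, and from -94, counting back from the start.
Zbtb46: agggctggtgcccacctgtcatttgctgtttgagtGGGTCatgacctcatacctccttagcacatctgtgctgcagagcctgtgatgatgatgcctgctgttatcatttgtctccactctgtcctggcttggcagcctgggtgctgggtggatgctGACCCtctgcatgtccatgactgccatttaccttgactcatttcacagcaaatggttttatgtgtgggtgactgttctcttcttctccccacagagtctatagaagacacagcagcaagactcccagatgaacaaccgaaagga

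Bcl6, a repressor best known from germinal centre B cells and follicular helper T cells and needed in mice for classical DCs, rose at both stages. Its signal was 8.90, 8.50 and 8.54 in Zbtb46+ CDPs, against 7.14, 6.88 and 6.89 in Zbtb46- CDPs. The lowest Zbtb46+ array lay above the highest Zbtb46- array by more than the range within either group. The mean was 3.19-fold higher in Zbtb46+ CDPs (95% interval 2.47 to 4.14; log2 1.68 ± 0.17 SE; limma adjusted p = 0.000316). Zbtb46- CDPs averaged 6.97, dim though above the silent-gene level of 6.54, so folds against them may understate the change in RNA. The differences between arrays of the same number were 1.75, 1.62 and 1.65, the most even among the 7 genes.

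In pre-CD8 DCs Bcl6 read 9.75, 9.20 and 9.70, above all 3 Zbtb46+ CDP arrays. The mean was 1.87-fold higher than in Zbtb46+ CDPs (95% interval 1.44 to 2.42; log2 0.90 ± 0.17 SE; limma adjusted p = 0.0129). That call was lost without replicate 2 of the Zbtb46+ CDPs (0.83, adjusted p = 0.0542), replicate 1 of the pre-CD8 DCs (0.80, adjusted p = 0.0582) or replicate 3 of the pre-CD8 DCs (0.83, adjusted p = 0.064). Ngp and some other granulocyte genes were also higher in replicates 1 and 3 of the pre-CD8 DCs than in replicate 2. S100a8 read 7.81, 6.11 and 7.52 and S100a9 8.83, 7.33 and 9.15. The granulocyte genes Mpo, Elane, Prtn3, Ctsg and Csf3r did not share this pattern. Prtn3 read 7.68, 7.73 and 7.57, Elane 6.81, 6.81 and 6.83, and Mpo 6.43, 6.02 and 5.79. The part of granulocyte genes in the Bcl6 values was not tested. Across both steps the pre-CD8 DCs were 5.97-fold above the Zbtb46- CDPs (95% interval 4.61 to 7.74; adjusted p = 9.21e-06). The second step minus the first was -0.77 (95% interval -1.42 to -0.13; adjusted p = 0.147), so the steps were not shown to differ in size by the model used. With the replicate number as a block the same difference had an adjusted p of 0.0441.

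RefSeq lists 2 starts for Bcl6, and both windows are shown because this gene changed at both stages and its protein binds the palindrome searched. The upstream window (GRCm38.p6, chr16:23988803-23989102, minus strand) holds TTCTCAGAA from position -118, GAGGAA once and GACCC in 3 places. The downstream window (chr16:23981234-23981533, minus strand) holds the palindrome in 3 places, as TTCCTGGAA, TTCTGTGAA and TTCCGGGAA, from positions -168, -122 and -88. The array has 1 probe set for the gene and does not separate transcripts by start.
Bcl6 upstream start: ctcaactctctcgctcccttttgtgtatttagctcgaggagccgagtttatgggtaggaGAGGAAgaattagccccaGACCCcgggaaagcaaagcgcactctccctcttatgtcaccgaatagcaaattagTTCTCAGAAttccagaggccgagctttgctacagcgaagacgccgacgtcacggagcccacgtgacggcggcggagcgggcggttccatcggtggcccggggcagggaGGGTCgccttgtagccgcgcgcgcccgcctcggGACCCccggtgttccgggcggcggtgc
Bcl6 downstream start: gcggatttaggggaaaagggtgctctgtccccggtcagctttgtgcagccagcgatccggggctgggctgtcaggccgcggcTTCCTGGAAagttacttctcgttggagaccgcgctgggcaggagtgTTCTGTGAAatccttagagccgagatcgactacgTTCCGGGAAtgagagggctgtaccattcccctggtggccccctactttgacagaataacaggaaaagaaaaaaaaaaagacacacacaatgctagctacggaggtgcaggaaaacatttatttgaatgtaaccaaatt

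Zbtb7b encodes ThPOK, which fixes the CD4 fate of T cells in the thymus. Its signal was 10.26, 9.23 and 9.19 in Zbtb46+ CDPs, against 8.14, 7.55 and 7.57 in Zbtb46- CDPs. All Zbtb46+ arrays lay above all Zbtb46- arrays, and replicate 1 was the highest in both groups. The mean was 3.49-fold higher in Zbtb46+ CDPs (95% interval 2.26 to 5.40; log2 1.80 ± 0.28 SE; limma adjusted p = 0.00291), the largest difference among the 7 in that comparison. Between arrays of the same number the differences were 2.12, 1.68 and 1.62, so the rise did not rest on the first pair.

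Pre-CD8 DCs read 9.71, 9.41 and 9.58 for Zbtb7b, inside the range of the Zbtb46+ CDPs. The difference was 0.01 (95% interval -0.62 to 0.64; limma adjusted p = 0.992), an interval that holds folds of 0.650 to 1.55. Without the 2 arrays low in Xist it was 0.36 (adjusted p = 0.0307). Pre-CD8 DCs were 3.51-fold above Zbtb46- CDPs (adjusted p = 0.0019). The second step minus the first was -1.80 ± 0.48 (SE; adjusted p = 0.0565). Leaving out replicate 1 of the Zbtb46+ CDPs gave -1.10 (adjusted p = 0.0421), and leaving out both arrays low in Xist gave -1.29 (adjusted p = 0.00366). With a replicate block its adjusted p was 0.0124.

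Of the 7, none was called in that comparison of the 2 steps by limma, beside 6.26% of all genes called with a positive and 1.36% with a negative difference. At an unadjusted limma p under 0.05 there were 4: Zbtb7b, Bcl6 (0.0244), Zfp366 (0.0279) and Zbtb16 (0.0437), all with a negative difference. Beside them, 4659 of the 19938 genes passed that threshold in either direction. Zbtb7b, Bcl6 and Zfp366 had a smaller second step. For Zbtb16 the steps ran in opposite directions, 0.19 and then -0.15. Without the 2 arrays low in Xist the differences of Bcl6 and Zfp366 were -0.61 (unadjusted p = 0.0688) and -0.37 (unadjusted p = 0.2). Zbtb16 was then called along with Zbtb7b, at -0.50 (limma adjusted p = 0.0343), where 12.4% of all genes were called with a positive and 7.54% with a negative difference.

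The downstream RefSeq window of Zbtb7b (GRCm38.p6, chr3:89387622-89387921, minus strand) is shown because it holds 3 of the motifs, as many kinds as the upstream Bcl6 window and more than the others. GAGGAA occurs in 2 places, TGACCA once and GACCC in 2 places. The upstream window (chr3:89393329-89393628) holds GACCC once and none of the other motifs.
Zbtb7b downstream start: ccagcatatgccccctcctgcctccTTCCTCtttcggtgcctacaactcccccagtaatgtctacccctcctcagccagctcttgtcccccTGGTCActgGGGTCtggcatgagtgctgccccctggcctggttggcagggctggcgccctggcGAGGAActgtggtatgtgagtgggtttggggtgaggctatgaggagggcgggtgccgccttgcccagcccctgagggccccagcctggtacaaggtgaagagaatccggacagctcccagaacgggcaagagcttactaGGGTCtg

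Zbtb7a, the close relative of Zbtb7b that is also called LRF and is known from erythroid cells and the choice between B and T cell fates, had the widest spread within the CDP groups of the 7. It read 9.61, 8.32 and 8.30 in Zbtb46+ CDPs, against 8.64, 7.81 and 7.96 in Zbtb46- CDPs. Replicate 1 exceeded the mean of the other replicates by 1.30 in Zbtb46+ CDPs and by 0.76 in Zbtb46- CDPs, and these are the arrays low in Xist. The groups overlapped, and the difference of 0.61 ± 0.35 (SE; limma adjusted p = 0.283) was not called. Between arrays of the same number the differences were 0.97, 0.51 and 0.34. A fit of the 2 CDP groups alone with the replicate number as a block called it, at an adjusted p of 0.0432.

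Pre-CD8 DCs gave 8.86, 9.24 and 8.90 for Zbtb7a. All 3 lay above the Zbtb46- CDPs, with a difference of 0.86 ± 0.35 (SE; limma adjusted p = 0.161), and they overlapped the Zbtb46+ CDPs, with a difference of 0.25 (adjusted p = 0.743). Without the arrays low in Xist the same differences were 1.12 (adjusted p = 0.000485) and 0.69 (adjusted p = 0.00861). Over the whole span Zbtb7a was also called without replicate 1 of the Zbtb46+ CDPs alone (adjusted p = 0.0154), in a fit of those 2 groups only (adjusted p = 0.0405) and with array weights (adjusted p = 0.000187). Some granulocyte genes besides Ngp were also high in replicate 1 of the Zbtb46+ CDPs. Across replicates 1 to 3 of that group Lcn2 read 11.38, 5.70 and 5.44, and Elane 11.65, 8.87 and 8.68. In Zbtb46- CDPs Lcn2 read 8.68, 5.83 and 6.31, while Elane read 11.47, 11.21 and 11.37. Ctsg did not share the pattern, at 9.11, 9.18 and 9.18 in Zbtb46+ and 11.70, 11.72 and 11.83 in Zbtb46- CDPs. What sets the arrays low in Xist apart, and the part of granulocyte genes in the values of the 7 genes, was not tested. The Zbtb7a window (GRCm38.p6, chr10:81136021-81136320, plus strand) is the richest in G and C among those found, at 77.7%, and holds GACCC once, after the start.

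**Figure D2:**
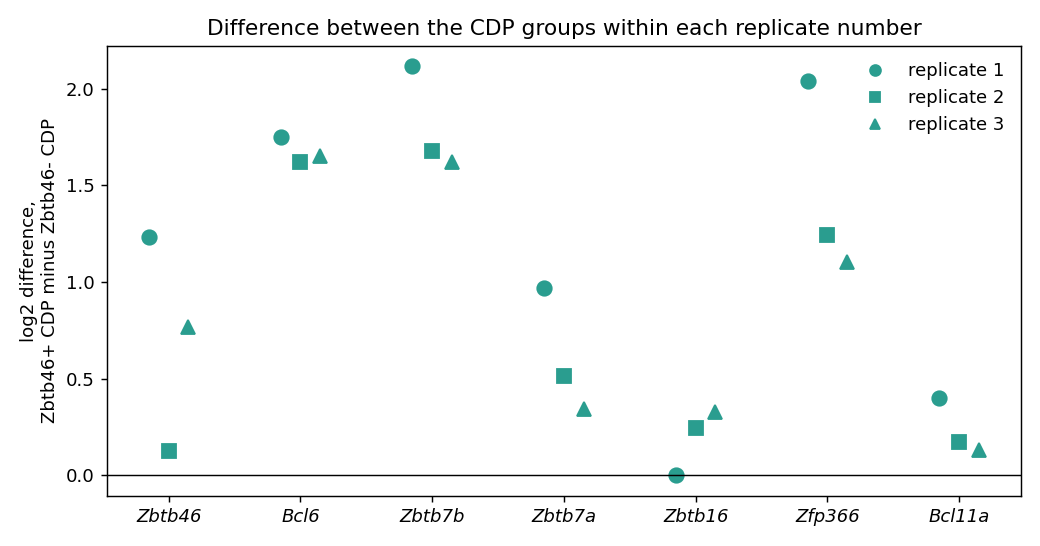
Zbtb46+ CDP minus Zbtb46- CDP difference in log2 signal between arrays of the same replicate number (vertical axis), for each of the 7 genes. Points are the 3 pairs. Bcl6 spans 1.62 to 1.75, while Zbtb46 spans 0.13 to 1.23 and Zbtb7a 0.34 to 0.97.

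Zbtb16, or PLZF, directs natural killer T cells and innate lymphoid precursors. It gave 6.94, 6.94 and 6.78 in Zbtb46- CDPs, 6.94, 7.19 and 7.11 in Zbtb46+ CDPs and 6.94, 6.94 and 6.91 in pre-CD8 DCs. All 9 values lie between 6.78 and 7.19, and 3 arrays hold an identical signal of 122.97 on the linear scale. The differences of 0.19, -0.15 and 0.04 were not called (limma adjusted p = 0.17, 0.385 and 0.871, in the order of the 3 comparisons). The Zbtb46+ minus Zbtb46- difference was called without replicate 1 of the Zbtb46+ CDPs (0.26, adjusted p = 0.036) and without the 2 arrays low in Xist (0.28, adjusted p = 0.0357). It was also called with array weights (0.33, limma adjusted p = 0.00707). The group means, 6.89, 7.08 and 6.93, were dim, beside 6.54, 6.84 and 6.69 for the silent-gene level in the same groups.

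Because Zbtb16 is a lymphoid gene, markers of T, natural killer and innate lymphoid cells are given beside it. Of 13, 11 were measured, and their summed linear signal was 679 to 750 in Zbtb46- CDPs, 812 to 858 in Zbtb46+ CDPs and 718 to 749 in pre-CD8 DCs. Thy1, a surface protein of T cells and early innate lymphoid cells, was the only one called, 0.90 higher in Zbtb46+ than in Zbtb46- CDPs (limma adjusted p = 0.00554). Cd3d averaged 5.01 in Zbtb46+ CDPs and 4.88 in Zbtb46- CDPs, among the silent genes. Their part in the Zbtb16 values was not tested.

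Zfp366 (DC-SCRIPT), a DC regulator that works with nuclear receptors and is needed in mice for cDC1 function, followed Bcl6 closely. It read 8.41, 7.87 and 7.87 in Zbtb46+ CDPs, against 6.37, 6.63 and 6.77 in Zbtb46- CDPs. The groups were separated by more than 1 log2 unit, and replicates 2 and 3 of the Zbtb46+ CDPs hold the identical linear value of 234.33. The mean was 2.75-fold higher in Zbtb46+ CDPs (95% interval 2.06 to 3.68; log2 1.46 ± 0.18 SE; limma adjusted p = 0.00109). As the Zbtb46- CDPs averaged 6.59, near the silent-gene level of 6.54, this fold may also understate the change.

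Pre-CD8 DCs gave 8.94, 8.67 and 8.41 for Zfp366. All 3 lay above the Zbtb46+ CDPs, replicate 3 by less than 0.01. The difference of 0.63 ± 0.18 (SE; limma adjusted p = 0.0854) was not called. It was called without replicate 1 of the Zbtb46+ CDPs (0.80, adjusted p = 0.0144) and without the arrays low in Xist (0.80, adjusted p = 0.00901). Pre-CD8 DCs were 4.25-fold above Zbtb46- CDPs (95% interval 3.19 to 5.68; adjusted p = 6.32e-05).

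Bcl11a, needed for B cells and plasmacytoid DCs and known for silencing fetal globin, overlapped between all 3 groups. It read 10.78, 10.33 and 10.30 in Zbtb46+ CDPs, against 10.38, 10.15 and 10.17 in Zbtb46- CDPs. In pre-CD8 DCs it read 10.47, 10.22 and 10.37. The differences were 0.23 (95% interval -0.08 to 0.54; limma adjusted p = 0.291) for Zbtb46+ against Zbtb46- CDPs and -0.11 (-0.42 to 0.20; adjusted p = 0.702) for pre-CD8 DCs against Zbtb46+ CDPs. For pre-CD8 DCs against Zbtb46- CDPs it was 0.12 (-0.19 to 0.43; adjusted p = 0.73), an interval that holds folds of 0.877 to 1.35. With array weights this last difference was 0.23 and was called (limma adjusted p = 0.0168). The Bcl11a window (GRCm38.p6, chr11:24080445-24080744, plus strand) holds TTCGACGAA, a match of the Bcl6 palindrome, from position -224, and GACCC once. It is shown as the window of a gene that the main fit called in none of these comparisons.
Bcl11a: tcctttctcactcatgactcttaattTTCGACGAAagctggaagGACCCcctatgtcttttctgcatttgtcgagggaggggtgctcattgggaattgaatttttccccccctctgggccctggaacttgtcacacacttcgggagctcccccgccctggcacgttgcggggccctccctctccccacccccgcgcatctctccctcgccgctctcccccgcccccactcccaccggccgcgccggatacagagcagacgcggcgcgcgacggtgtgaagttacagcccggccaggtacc

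**Figure D3:**
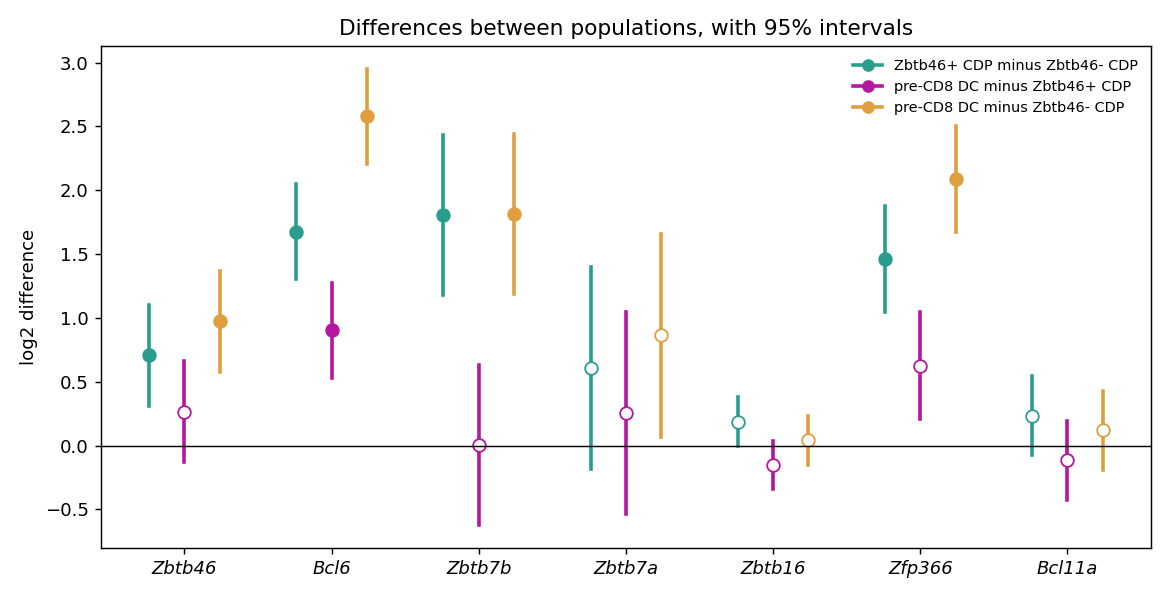
Difference of mean log2 signal with its 95% interval (vertical axis) for each of the 7 genes in Zbtb46+ CDPs minus Zbtb46- CDPs, pre-CD8 DCs minus Zbtb46+ CDPs and pre-CD8 DCs minus Zbtb46- CDPs. Filled points were called at an adjusted p under 0.05. Zbtb7b lies at 1.80, 0.01 and 1.81 in these comparisons, and Bcl6 at 1.68, 0.90 and 2.58.

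Across the 9 arrays, Bcl6 and Zfp366 had a Pearson correlation of 0.97, Bcl6 and Zbtb7b 0.91, and Zbtb7a and Zbtb7b 0.83. Zbtb16 correlated with none of the others above 0.33. These arrays come from only 3 populations, so the values describe a shared order of groups. They also hold the high first replicates of the CDPs, for Zbtb7a, Zbtb7b and Bcl11a among others. Among 9458 genes brighter than the median, the most like Bcl6 were Niban1 (0.998), Rab7b (0.997), Ece1 (0.996) and Alcam (0.995). Rab7b, an endosomal small GTPase, averaged 7.79 in Zbtb46- CDPs, 9.79 in Zbtb46+ CDPs and 11.00 in pre-CD8 DCs. Nearest to Zfp366 were Map3k9, Egfl8, Pld4 and Gdpd5, at 0.99 each. Zbtb7b was nearest to Tmem109, Sema4d, Emp3 and Cotl1, all at 0.99. Tmem109, whose likeness follows from this choice by correlation, averaged 9.60 in Zbtb46- CDPs, 10.40 in Zbtb46+ CDPs and 10.37 in pre-CD8 DCs. Zbtb46 was nearest to Baz2b (0.97), Plekhm3, Mst1 and Septin9 (0.95 each). Bcl11a was nearest to Nfatc1 (0.99), Cnnm4, Pigs and Fkbp15 (0.97 each), Zbtb7a to Rnf31, Ascc1, Pura and Tbc1d22a (all 0.98), and Zbtb16 to Sh3rf3, Rps6kl1 (0.95 each), Ncaph (0.93) and Krtap19-4 (0.92).

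The 43 other BTB genes listed were all measured, and all but Bach1 and Bach2 are zinc finger genes. In Zbtb46+ against Zbtb46- CDPs, 1 was higher and 5 lower. These counts lie near the shares over all genes, 3.85% higher and 10.6% lower. For this and the later lists, the shares were 4.76% and 1.86% in pre-CD8 DCs against Zbtb46+ CDPs. Over the whole span they were 6.43% and 9.23%. The family's median difference was -0.15, against 0.04 over all genes. Zbtb8a rose by 0.49 (limma adjusted p = 0.0115). Gzf1, a repressor downstream of the GDNF growth factor, fell by 0.98 (adjusted p = 0.0078), and Zbtb33, or Kaiso, which binds methylated DNA, fell by 0.83 (adjusted p = 0.0462). In Zbtb46+ CDPs they averaged 6.84 and 6.94, at and near the silent-gene level of 6.84, so these falls may understate the change. Zbtb18 fell by 0.46 and Zfp131 by 0.39. Zbtb26 was also called lower, but its means of 5.81 in Zbtb46+ and 6.29 in Zbtb46- CDPs both lay under the silent-gene level, so no size is given. In pre-CD8 DCs against Zbtb46+ CDPs, 2 were higher and 0 lower: Zbtb32, a lymphocyte repressor also called ROG, by 0.79 (adjusted p = 0.00569) and Zbtb4 by 0.28 (adjusted p = 0.0476). Without the arrays low in Xist that second count was 7 higher and 0 lower, where 12.5% of all genes were higher and 7.87% lower. Over the whole span 3 were higher (Zbtb32, 1.13; Zbtb8a, 0.37; Zbtb4, 0.32) and 3 lower (Zbtb18, -0.69; Gzf1, -0.65; Zbtb12, -0.41), and 6 and 4 without those arrays.

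Of 25 corepressor genes of the NCoR, SMRT, BCOR, NuRD and CtBP complexes, 23 were measured. In Zbtb46+ against Zbtb46- CDPs, 1 was higher and 3 lower, also near the shares over all genes, with a median of -0.02 beside 0.04. Mta3, the NuRD subunit known as a Bcl6 partner in B cells, rose by 0.51 (limma adjusted p = 0.0116) in Zbtb46+ CDPs and by a further 0.54 (adjusted p = 0.0178) in pre-CD8 DCs. It was the only one called at the second step. Bcor, a corepressor that binds the Bcl6 BTB domain, fell by 0.47 in Zbtb46+ CDPs (adjusted p = 0.0386), Hdac3 by 0.42 (adjusted p = 0.0398) and Rcor1 by 0.31 (adjusted p = 0.0445). In pre-CD8 DCs against Zbtb46- CDPs 1 was higher (Mta3, 1.05) and 3 lower (Chd4, -0.55; Bcor, -0.49; Mta1, -0.37). That count was 4 higher and 7 lower without the arrays low in Xist, where 9.4% of all genes were higher and 10.8% lower.

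Genes known as repressed by Bcl6, mainly from B cells, moved in both directions. Of 22, 19 were measured. In Zbtb46+ against Zbtb46- CDPs 3 were higher and 5 lower, with a median of 0.02 beside 0.04 over all genes; in pre-CD8 DCs against Zbtb46+ CDPs 2 were higher and 4 lower, with a median of -0.07 beside -0.03. Cd69, an early activation antigen, averaged 7.21 ± 0.17 in Zbtb46+ CDPs and 10.21 ± 0.08 in Zbtb46- CDPs (SD, n = 3 each), a difference of -3.00 (limma adjusted p = 2.1e-06). In pre-CD8 DCs it averaged 5.78, under the silent-gene level of 6.69, so its differences there may understate the change. Bcl2, a survival factor, fell by 0.92 (adjusted p = 0.000391) and by a further 1.44 (adjusted p = 4.22e-05). Myc fell by 1.60 in Zbtb46+ CDPs, but in pre-CD8 DCs it was 0.78 higher than in Zbtb46+ CDPs (adjusted p = 0.0243). Ccnd2, a G1 cyclin, differed by 0.00 between the CDP groups and fell by 1.74 in pre-CD8 DCs against Zbtb46+ CDPs (adjusted p = 8.16e-05).

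Id2, an inhibitor of E proteins that is needed for cDC1 cells and was listed under both Bcl6 and Bcl11a, was 3.86 higher in Zbtb46+ than in Zbtb46- CDPs (limma adjusted p = 5.04e-06) and 1.23 higher in pre-CD8 DCs than in Zbtb46+ CDPs (adjusted p = 0.00347). In Zbtb46- CDPs Id2 averaged 6.56, at the silent-gene level, so the first of these may understate the change. Cdkn1b was also higher in Zbtb46+ CDPs, by 0.47 (adjusted p = 0.0103). Irf4 was called higher as well (adjusted p = 0.0257), though its means of 6.66 in Zbtb46+ and 5.95 in Zbtb46- CDPs both lay under the silent-gene level. Atr and Chek1, kinases of the DNA damage checkpoint, fell by 0.48 (adjusted p = 0.0123) and 0.42 (adjusted p = 0.029), and Chek1 fell by a further 0.88 in pre-CD8 DCs (adjusted p = 0.00156). Prdm1, the best known Bcl6 target of B cells, averaged 5.37 in Zbtb46+ CDPs and 5.36 in Zbtb46- CDPs, among the silent genes. In pre-CD8 DCs against Zbtb46- CDPs 3 of the 19 were higher and 7 lower, with Bcl2 at -2.36.

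All 8 genes listed as regulated through Bcl11a in early lymphoid and DC progenitors were measured, and 2 were higher and 2 lower in Zbtb46+ than in Zbtb46- CDPs, with a median of 0.02 beside 0.04 over all genes. Besides Id2, the corepressor gene Cbfa2t3 was higher, by 1.49 (limma adjusted p = 0.0136). Flt3, the cytokine receptor that sustains DC progenitors, fell by 0.49 (adjusted p = 0.0243). Il7r, the interleukin 7 receptor, was also called lower, but its means of 4.83 in Zbtb46+ and 5.79 in Zbtb46- CDPs both lay under the silent-gene level. Flt3 was then 0.59 higher in pre-CD8 DCs than in Zbtb46+ CDPs (adjusted p = 0.02), where 2 of the 8 were higher and 0 lower. Tcf4, the E protein of plasmacytoid DCs, was 0.69 lower in pre-CD8 DCs than in Zbtb46- CDPs (adjusted p = 0.0111), in a comparison with 2 higher and 2 lower.

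The 7 genes reported as higher in Zbtb46-deficient DCs, mostly of MHC class II, were measured in full. Of these, 5 were higher and 2 lower in Zbtb46+ than in Zbtb46- CDPs, and 5 were higher and 1 lower in both comparisons of the pre-CD8 DCs. Their medians were 1.65 in Zbtb46+ against Zbtb46- CDPs and 2.79 in pre-CD8 DCs against Zbtb46+ CDPs, beside 0.04 and -0.03 over all genes. H2-Aa, an MHC class II chain, was 4.98 higher in Zbtb46+ than in Zbtb46- CDPs (limma adjusted p = 0.000104) and 2.51 higher in pre-CD8 DCs than in Zbtb46+ CDPs (adjusted p = 0.00601). Ciita, the class II transactivator, was higher by 1.48 (adjusted p = 0.00138) and by 2.79 (adjusted p = 6.14e-05). In Zbtb46- CDPs H2-Aa and Ciita averaged 6.11 and 6.05, under the silent-gene level, so the differences against that group may understate the change in RNA. Csf3r, the G-CSF receptor, had differences of -0.91 (adjusted p = 0.00111) and -1.34 (adjusted p = 0.00022), and Lifr, at 5.92 in Zbtb46+ CDPs and 6.69 in Zbtb46- CDPs, was called lower at a signal near the silent-gene level (adjusted p = 0.0133). Csf3r also counts among the granulocyte markers, whose summed signal was 27837 to 32557 in Zbtb46- CDPs, 8060 to 32464 in Zbtb46+ CDPs and 1130 to 2133 in pre-CD8 DCs; their part in its fall was not tested.

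Of 10 nuclear receptors that DC-SCRIPT acts on or may meet, 9 were measured, and their medians were -0.0041 and 0.056 at the first and second step. Rara, the retinoic acid receptor alpha, was the only one called in Zbtb46+ against Zbtb46- CDPs, 1.31 higher (limma adjusted p = 0.00223). Vdr, the vitamin D receptor, was the only one called in pre-CD8 DCs against Zbtb46+ CDPs, where it fell by 1.40 (adjusted p = 0.000726). Over the whole span Rara (1.21) and Nr3c1, the glucocorticoid receptor (0.38), were higher and Vdr (-1.63) was lower.

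**Figure D4:**
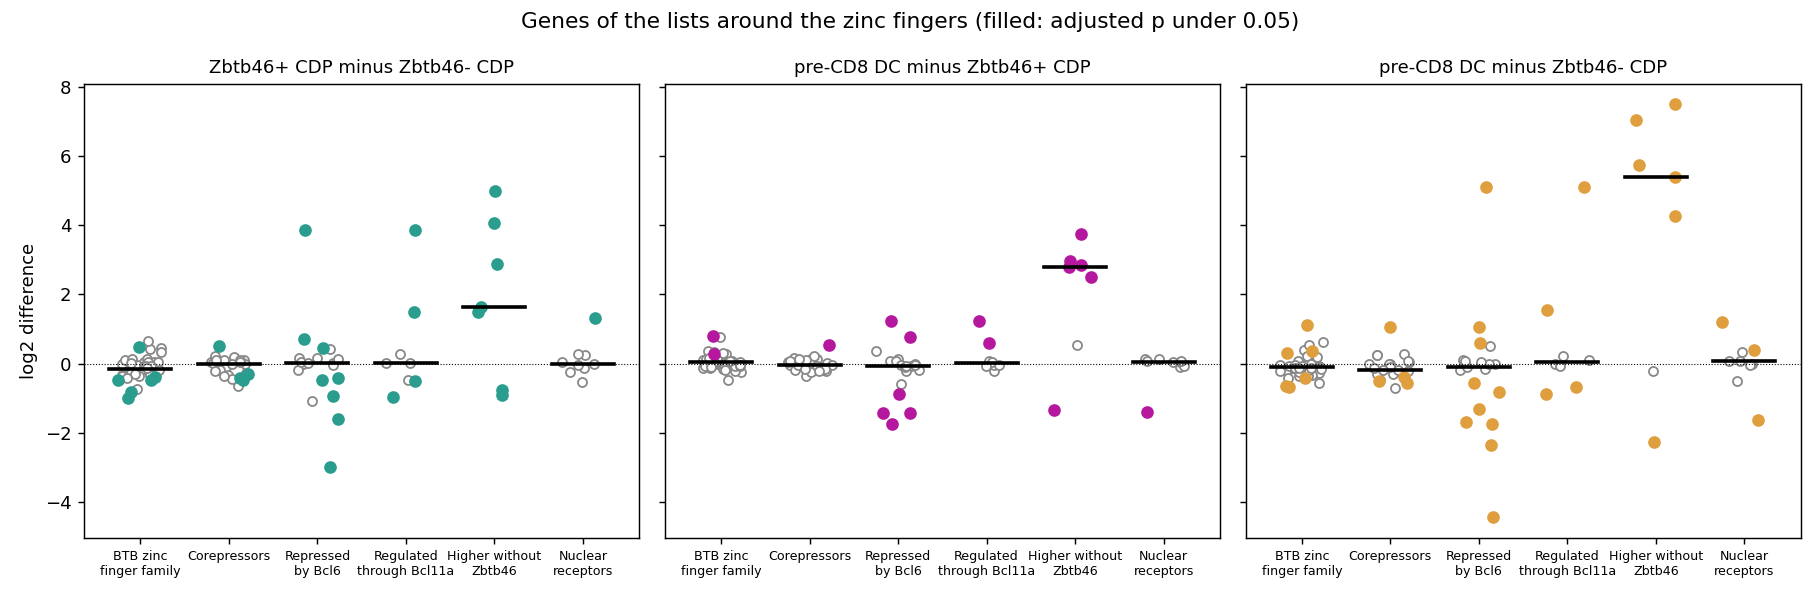
Log2 differences of the genes in each related list (points, vertical axis), in 1 panel for each of the 3 comparisons, with called genes filled and the list median as a line. Genes known as repressed by Bcl6 lie on both sides of 0 in all 3 panels, with Id2 at 3.86 and Cd69 at -3.00 in Zbtb46+ CDPs minus Zbtb46- CDPs.

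Since Bcl6 and Bcl11a are also B cell genes, B cell markers are given beside them. Of 9, 8 were measured, and their summed signal was 1052 to 1229 in Zbtb46- CDPs, 1863 to 2303 in Zbtb46+ CDPs and 2087 to 2471 in pre-CD8 DCs. Cd22, a sialic acid binding receptor, was 2.66 higher in Zbtb46+ than in Zbtb46- CDPs (limma adjusted p = 3.12e-05), while Cd79b fell by 0.52 (adjusted p = 0.00644). Cd79a and Ebf1, which define the B lineage, averaged 4.90 and 5.11 in Zbtb46- CDPs, 5.01 and 5.12 in Zbtb46+ CDPs and 5.03 and 5.06 in pre-CD8 DCs, all under the silent-gene level. Of 8 markers of plasmacytoid DCs, which need Bcl11a, 6 were measured, with a summed signal of 4246 to 5393 in Zbtb46- CDPs, 3422 to 3654 in Zbtb46+ CDPs and 3619 to 4089 in pre-CD8 DCs. For erythroid, megakaryocyte, mast cell and basophil markers, given beside the erythroid factor Zbtb7a, 8 of 10 were measured, and the sums were 870 to 963, 565 to 595 and 514 to 579 in the same order. Only Mcpt8, a basophil protease, was called there, with a difference of -2.04 in Zbtb46+ against Zbtb46- CDPs (limma adjusted p = 0.000498). The part of these cells in the values of Bcl6, Bcl11a and Zbtb7a was not tested.

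Alternative processing moved the comparison of pre-CD8 DCs with Zbtb46+ CDPs as follows. Bcl6 ranged from 0.80 to 1.08 over 19 alternatives and was called, at an adjusted p under 0.05, in 16 of them. Zfp366 ranged from 0.49 to 0.86 and was called in 3, Zbtb7a from 0.03 to 0.69 and was called in 1, and Zbtb7b from -0.18 to 0.36 and was called in 1. Zbtb46 was called in none (0.17 to 0.40), and nor were Bcl11a and Zbtb16. For the whole span, Bcl6, Zfp366, Zbtb7b and Zbtb46 were called in all 19. In Zbtb46+ against Zbtb46- CDPs, Bcl6, Zfp366 and Zbtb7b were called in all 20. Without the 2 arrays low in Xist, 4 of the 7 were called higher at the second step, beside 12.5% of all genes. Over the whole span 5 were, Zbtb46 among them, beside 9.4%.

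**Figure D5:**
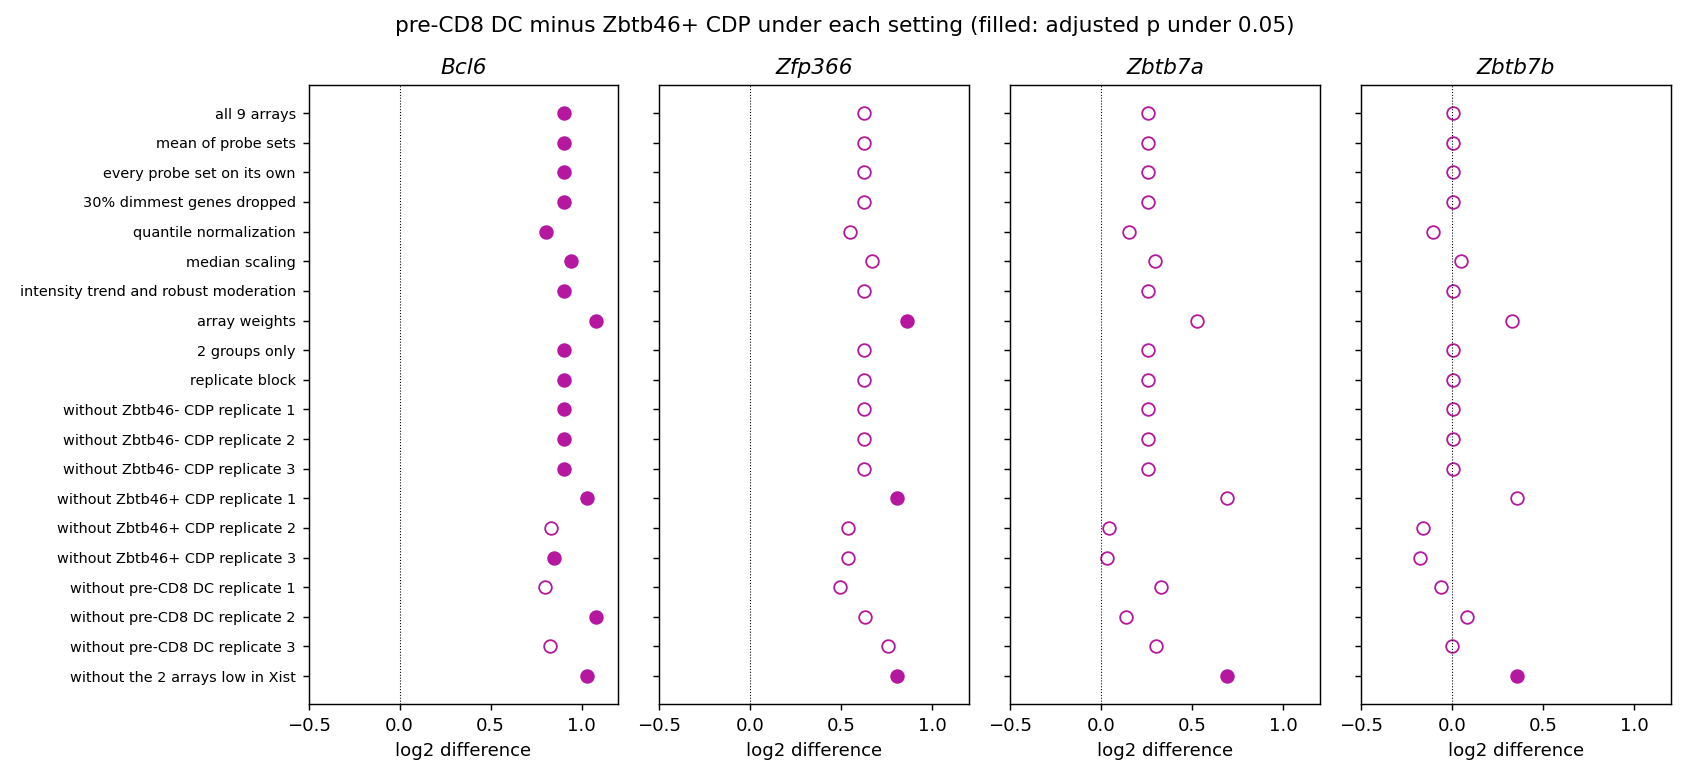
Log2 difference of pre-CD8 DCs minus Zbtb46+ CDPs for Bcl6, Zfp366, Zbtb7a and Zbtb7b (horizontal axes), with 1 row for the fit of all 9 arrays and 1 for each processing alternative. Filled points had an adjusted p under 0.05. Bcl6 stays between 0.80 and 1.08, whereas Zbtb7b spans -0.18 to 0.36 around 0.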

How the data were processed

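Per the labels' protocols, RNA of sorted bone marrow cells was labelled with a kit for picogram inputs and hybridised to Affymetrix mouse gene arrays. Summarisation used RMA in Affymetrix Expression Console, per the submitters' processing notes; versions and settings are not given in the sources used here. The deposited values are RMA signal intensities per probe set, on a linear scale of 7.45 to 20456, with array medians of 110.2 to 118.0, and log2 was taken with no other scaling. Of 28853 probe sets, 21789 carry 1 gene symbol, and the brightest was kept for each of 19938 genes.

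Linear models of group means were fitted to all 9 arrays with limma 3.58.1 (lmFit, contrasts.fit, eBayes) in R 4.3.3 and tested on simulated data first. Precision is limited by the number of arrays. The 7 genes and the lists were chosen with earlier results of these data known. Named genes are the 7, up to 4 called genes of each list per comparison, and the 4 genes most correlated with each of the 7; a few further list genes were named after their values were seen. Replicate numbers come from the titles. Residuals of same-numbered Zbtb46+ and Zbtb46- CDP arrays correlated at 0.51, 0.42 and 0.36. Each was over the 0.1 set for treating numbers as pairs, although Zbtb46+ replicate 2 with Zbtb46- replicate 3 reached 0.38. The main fit still used no pairs, so its calls between the CDP groups are unpaired. Fits with the replicate number as a block are alternatives. In that of the CDP groups alone, Zbtb46 lost its call and Zbtb7a gained one. Same-numbered pre-CD8 DC arrays gave -0.01, -0.03 and 0.03 with Zbtb46- CDPs and 0.11, 0.07 and 0.17 with Zbtb46+ CDPs. The main fit did not treat these as pairs either. Windows around annotated starts are from RefSeq (GRCm38.p6), which held 7 windows for 5 of the 7 genes.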

Additional observations from a re-analysis of the deposited data

How the results depend on the processing

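Over 560 values of the 7 genes under alternatives, 513 kept their direction and their side of the threshold, 24 passed it newly, 11 lost it and 12 changed sign. Genes called in Zbtb46+ against Zbtb46- CDPs numbered 2873, against 1405 at an adjusted p under 0.01, 6430 with array weights, 1858 in a fit of these groups alone, 4495 without the 2 arrays low in Xist and 1793 to 5268 when 1 replicate was left out. In pre-CD8 DCs against Zbtb46+ CDPs they numbered 1319, with 543, 3062, 850, 4066 and 662 to 2672 under the same settings. Over the whole span there were 3123, with 1877 at the stricter threshold and 6955 with array weights. For the difference between the steps there were 1521, with 418 at the stricter threshold, 3568 with array weights, 3966 without the arrays low in Xist and 671 to 3584 when 1 replicate was left out. Of the 7 genes, 1 was called at the second step, against 0 at the stricter threshold, 2 with array weights, 4 without the arrays low in Xist and 0 to 2 when 1 replicate was left out. For the difference between the steps 0 were called, against 1 without the dimmest 30% of genes, 1 after quantile normalization, 2 with array weights, 2 without the arrays low in Xist and 0 to 2 when 1 replicate was left out. Values that changed sign were not called on either side: Bcl11a at the second step (-0.11) was 0.051 with array weights, 0.042 without the arrays low in Xist and -0.20 to 0.042 when 1 replicate was left out. Zbtb7b at the second step (0.01) was -0.11 after quantile normalization and -0.18 to 0.36 when 1 replicate was left out. Zbtb16 over the whole span (0.04) was -0.014 to 0.068 when 1 replicate was left out, and Zbtb7a for the difference between the steps (-0.35) was 0.082 with array weights, 0.26 without the arrays low in Xist and -0.80 to 0.51 when 1 replicate was left out. The cause was not tested. With the replicate number as a block, 2 of the 7 genes (Bcl6 and Zbtb7b) were called for the difference between the steps, and in a fit of the CDP groups alone with that block Zbtb46 was not called (adjusted p = 0.0865) while Zbtb7a was (0.0432). The CDP fit with the block, and the counts of list genes without the arrays low in Xist, were chosen after seeing the data. Of the 4 genes most like Bcl6, 3 to 4 remained under every alternative, of those most like Zbtb7b and Zfp366 2 to 4, and of those most like Bcl11a, Zbtb16, Zbtb46 and Zbtb7a 1 to 4. Without the arrays low in Xist, list counts in Zbtb46+ against Zbtb46- CDPs were 2 higher and 7 lower of the BTB family, 1 and 5 of the corepressors, and 1 and 2 of the nuclear receptors, beside 8.71% higher and 13.8% lower among all genes; in pre-CD8 DCs against Zbtb46+ CDPs they were 4 and 4 of the genes repressed by Bcl6, 3 and 0 of those regulated through Bcl11a, and 2 and 0 of the corepressors.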
